A study of Mus musculus with 7 samples.

Results

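The comparison of the NuGEN and Clontech library kits used 4 of the 7 libraries of this series, and it was described over 13044 of the 41567 genes in the deposited gene table. The tested libraries were 1 NuGEN library of QIAGEN RNA and 1 NuGEN library of PicoPure RNA, and they were set against 1 Clontech SMARTer library of each RNA. The members were chosen by library kit and paired by RNA extraction kit, and a gene was tested where 2 or more libraries reached 10 normalized counts. A normalized count is the number of reads on a gene divided by the DESeq2 size factor of its library. All 4 libraries came from tissue labelled hippocampal CA2 neurons, cut out by laser capture from brains of naive male Amigo2-GFP C57BL/6 mice aged 6 weeks. The mice carry a reporter transgene under the control of *Amigo2* sequences, and captures of a region were pooled before extraction. Tissue cut in this way also holds glia, vessels and the processes of other neurons. The other 3 libraries are a NuGEN series over the number of PCR cycles and did not enter.

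The kits turn RNA into sequencing libraries by different chemistry. The Clontech SMARTer kit primes the RNA with random primers and lets the reverse transcriptase switch templates at the 5′ end of the RNA to add an adapter, after ribosomal RNA has been removed from the input. The NuGEN Ovation kit uses random and poly-dT primers, ligates adapters to double-stranded cDNA and removes ribosomal fragments before the library is amplified. Both keep the strand of the transcript. The NuGEN libraries here were not sheared and were longer than the Clontech libraries, so the kit, the library length and the way of removing ribosomal RNA cannot be told apart.

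The reads on genes numbered 4548002 and 5194138 in the NuGEN libraries of QIAGEN and PicoPure RNA, against 10176710 and 10417443 in the Clontech libraries. Genes annotated as ribosomal RNA and mitochondrially encoded genes took 5.08 and 3.78% with NuGEN, against 3.71 and 2.78% with Clontech, and they were left out. They were picked by annotated class, chromosome or symbol, so ribosomal reads assigned to other genes would remain. Of 13 CA2 marker genes, 12 were in the table and all 12 were above 0 in all 4 libraries, with summed levels of 17410 and 14930 normalized counts with NuGEN, against 15790 and 14130 with Clontech. Markers of other cells were present as well. The 10 oligodendrocyte markers summed to 7053 and 4340 with NuGEN, against 4588 and 3114 with Clontech. Of these sums *Mbp* alone gave 4078 and 2506 with NuGEN, against 1675 and 1050 with Clontech. The 10 astrocyte markers summed to 9472 and 7783 against 10620 and 10030, and the 9 microglial markers to 633.0 and 657 against 434 and 334.

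At an adjusted p under 0.05 in limma, 1407 genes were higher and 1363 were lower with NuGEN, which is 10.8% and 10.4% of the genes tested. The median log2 difference over all tested genes was -0.035. The calls higher with NuGEN were the larger in size, with a median log2 difference of 1.35, against -0.88 for those lower with NuGEN. A difference past 2 on the log2 scale was called for 411 genes higher and 90 genes lower. Across all 13044 genes tested, the differences in the QIAGEN RNA pair and in the PicoPure RNA pair had a Pearson's r of 0.458, and 404 genes differed by over 1 on the log2 scale in opposite directions. Across the 7594 genes that averaged 100 normalized counts or more, r was 0.791. Both values are descriptions across genes, which are not independent replicates. There was 1 library for each kit and RNA, so 1 residual degree of freedom was left. It holds the disagreement of the kit difference between the QIAGEN and PicoPure RNA pairs. The variance of each gene was drawn mostly from all genes, through 35.52 prior degrees of freedom. The p-values therefore measure no spread between replicate libraries. Leaving out 1 library also took out the RNA term, so the pairing by RNA was lost and 1 kit kept a single library. Few calls were left in these fits, while at least 2760 of the 2770 calls kept their direction. Over summed exon pieces 1475 genes were higher and 651 lower, and the median of all genes moved to 0.124. Of 93 called genes named here, 17 kept their direction and lost the call over summed exon pieces, namely *Tmem44*, *Map3k15*, *Gria1*, *Grik5*, *Gabra4*, *Gabrb2*, *Oxtr*, *Nr3c1*, *Adra1d*, *Kcnma1*, *Gphn*, *Snap25*, *Pcsk1*, *Syne2*, *Rian*, *Slc1a2* and *Idh3a*. Under DESeq2 on the recovered reads 9 lost it, namely *Map3k15*, *Grm5*, *Adra1d*, *Dlg1*, *Snap25*, *Pcsk1*, *Syne2*, *Pvalb* and *Nr3c1*.

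Differences were ranked among called genes with a mean of at least 100 normalized counts, with exon pieces that make up at least 0.5 of the gene value and with the same sign in both RNA pairs, leaving out predicted symbols and histone, small RNA and ribosomal protein genes. In favor of NuGEN, the 10 largest in this set had transcripts of 371 to 2026 nt and were those of *Atp5k*, *Tmsb10*, *Ndufa3*, *Atp5j2*, *Prrt1*, *Ndufb3*, *Mt2*, *Rnasek*, *Syna* and *Cox6a1*. *Prrt1*, a proline-rich transmembrane protein associated with AMPA receptors, had 7308 and 5797 normalized counts in the NuGEN libraries of QIAGEN and PicoPure RNA, against 184 and 248 in the Clontech libraries. The lowest NuGEN value was far above the highest Clontech value, and the fitted log2 difference was 4.92 (SE 0.168, adjusted p = 7.52e-24 in limma). *Rnasek*, an endoribonuclease, had 3628 and 2261 with NuGEN, against 170.4 and 109 with Clontech (log2 4.39). *Mt2*, a metal-binding metallothionein, had 1244 and 859 with NuGEN, against 30.9 and 55.9 with Clontech (log2 4.60). *Tmsb10*, a thymosin that binds actin monomers, had 235 and 281 with NuGEN, against 7.07 and 0 with Clontech, and *Atp5k*, a small subunit of ATP synthase, had 593 and 391.7 with NuGEN, against 0 and 11.8 with Clontech. For these last genes 1 Clontech library was at 0, so the fitted log2 differences of 6.50 and 7.08 depend on the pseudocount of 1.

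In favor of Clontech, the 10 genes with the largest differences in the same set had transcripts of 1725 to 6882 nt. *Rab3gap1*, a subunit of the activator that regulates Rab3 at the synapse, had 303 and 284 normalized counts with NuGEN, against 1219 and 1125 with Clontech (log2 -1.99, adjusted p = 5.95e-10). *Cadps2*, which primes dense-core vesicles for release, had 225 and 257 with NuGEN, against 994 and 1036 with Clontech (log2 -2.07). *Btbd1*, an adaptor of a ubiquitin ligase, had 167 and 233 with NuGEN, against 1029 and 828 with Clontech (log2 -2.22). *Trim23*, *Cmpk1*, *Birc2*, *Plekhh2* and *Fam169a* were lower with NuGEN by 1.97, 1.96, 1.87, 2.02 and 1.86 on the log2 scale. *Nkx2-4*, a homeobox transcription factor, had 1.67 and 21.1 with NuGEN, against 213 and 191 with Clontech (log2 -4.72), and *Tmem44* had 9.995 and 66.0 with NuGEN, against 164 and 186 with Clontech (log2 -2.69). In both of these the NuGEN libraries also differed strongly from each other. The *Nkx2-4* transcript has 1725 nt with 64.6% guanine and cytosine, and that of *Tmem44* 2405 nt with 57.2%. Genes of like length and composition were on balance higher with NuGEN, with medians of 0.73 and 0.41 in the bins used below.

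**Figure D1:**
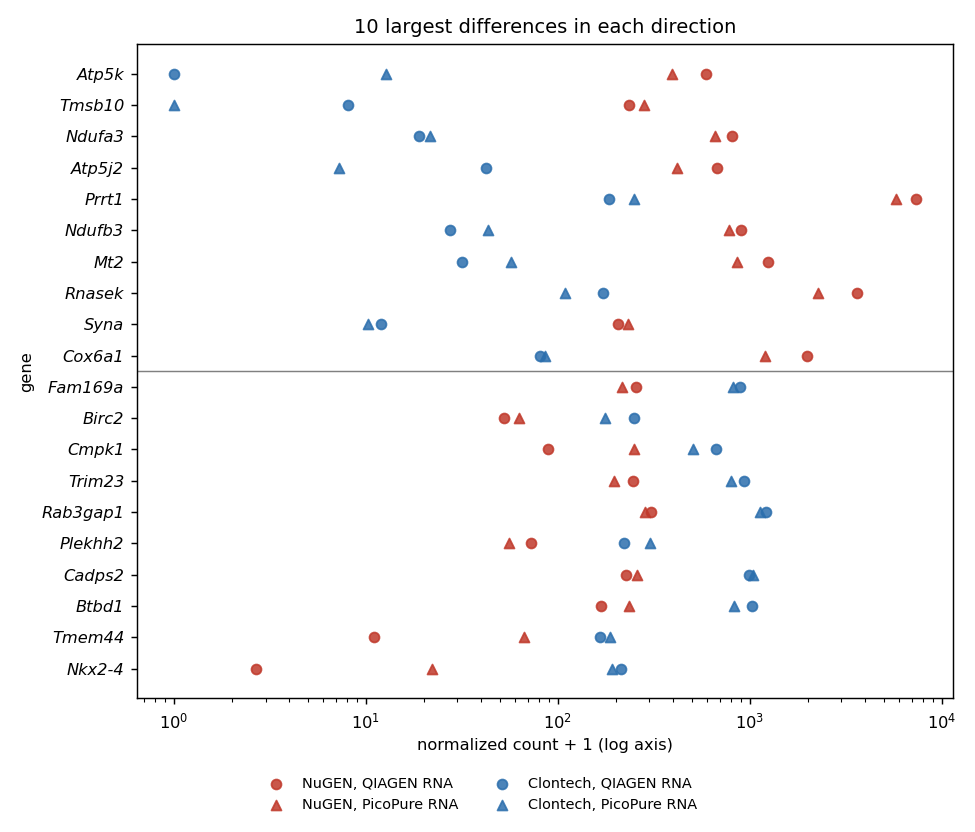
Normalized counts plus 1 on a log axis in the 4 libraries for the 10 genes with the largest differences in each direction among those ranked. Red points are NuGEN and blue points Clontech libraries, circles QIAGEN and triangles PicoPure RNA. The genes were chosen for large differences of the same sign in both RNA pairs, so the gap between red and blue points follows largely from that choice. They run from *Atp5k* (593 and 391.7 with NuGEN, 0 and 11.8 with Clontech) to *Nkx2-4* (1.67 and 21.1 with NuGEN, 213 and 191 with Clontech).

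Transcript length ordered the differences over 10 equal bins of genes. Length, GC content and exon number of a gene are, throughout, those of its longest annotated transcript, which may not be the one expressed here. In the shortest bin, with transcripts of up to 1189 nt, 333 of 1254 (26.6%) were higher and 30 lower with NuGEN, and the median log2 difference was 0.78. In the longest bin, from 6964 nt, 51 of 1253 were higher and 367 (29.3%) lower, and the median was -0.38. The medians fell in every step between these ends. The shortest and longest bins had medians of 0.88 and -0.37 in the QIAGEN RNA pair and of 0.76 and -0.35 in the PicoPure RNA pair. GC content, the share of guanine and cytosine in the transcript, ordered them the other way. In the lowest bin, up to 41.7% GC, 47 genes were higher and 217 lower with a median of -0.34, and in the highest bin, from 58.2% GC, 344 were higher and 31 lower with a median of 0.58. Spearman's rho across 12531 genes was -0.307 with length and 0.294 with GC content, each a description across genes that share libraries. The lengths of the coding sequence (rho = -0.266) and of the 3′ untranslated region (-0.243) gave the same order. So did the number of exons (-0.22) and the span of the gene on the chromosome (-0.288). The mean level of the gene gave little order in the signed difference (-0.0674). The share of genes called did rise with mean level, from 1.99% higher and 1.38% lower in the lowest bin to 24.7 and 30.3% in the highest. Shares of a list set beside those of all genes thus also depend on the level of its members.

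**Figure D2:**
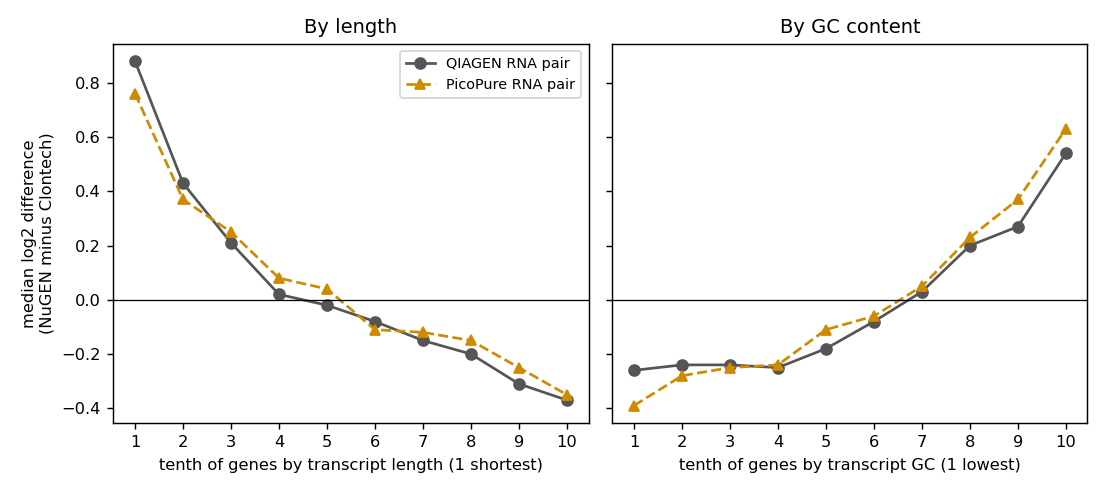
Median log2 difference between NuGEN and Clontech libraries (NuGEN minus Clontech) in 10 equal bins of the tested genes by transcript length (left) and by transcript GC content (right), for QIAGEN RNA (grey circles) and PicoPure RNA (orange triangles). Both RNA pairs fall with length, to -0.37 and -0.35 in the longest bin, and rise with GC content, to 0.54 and 0.63 in the highest bin.

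Length and GC content were then crossed in 5 equal bins each. Among 11471 protein-coding genes outside the excluded lists, the median log2 difference was 0.73 in the 709 genes that were in the shortest bin (up to 1959 nt) and the GC-richest bin (from 55.9%), where 192 were higher and 13 lower with NuGEN. It was -0.51 in the 689 genes that were in the longest bin (from 5497 nt) and the GC-poorest bin (up to 44.2%), where 13 were higher and 235 lower. Within the longest bin the medians ran from -0.51 to 0.11 with rising GC content, and within the GC-poorest bin from 0.28 to -0.51 with rising length. The GC-richest bin had a positive median at every length, down to 0.11 in the 207 longest genes, and within the shortest bin the 3 lower GC bins were alike (0.28, 0.30 and 0.24).

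**Figure D3:**
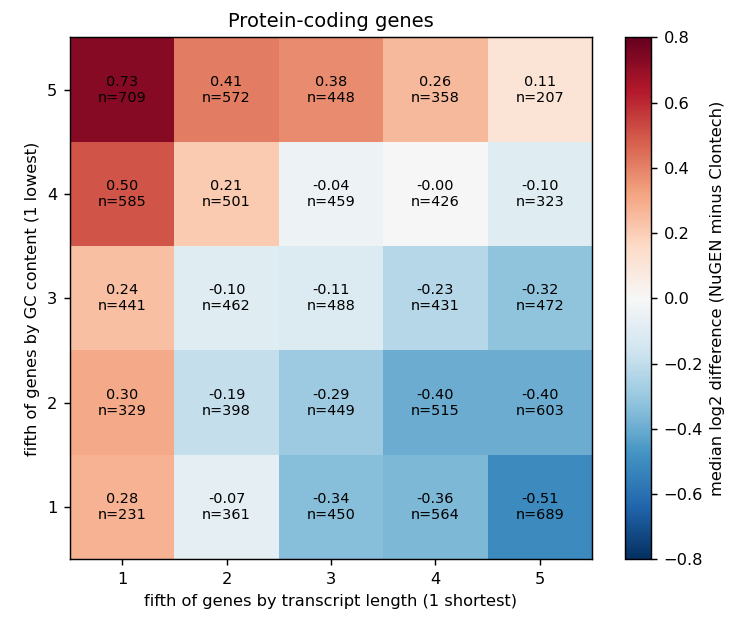
Median log2 difference (NuGEN minus Clontech) of protein-coding genes in 25 fields by bins of transcript length (x axis, 1 shortest) and of GC content (y axis, 1 lowest), with the number of genes in each field. Red fields were on balance higher and blue fields lower with NuGEN, from 0.73 in short GC-rich genes to -0.51 in long GC-poor genes.

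Members of 1 family could differ in opposite directions and in length and GC content. The members shown have the largest called differences of their lists in each direction, among those averaging at least 100 normalized counts. Rab GTPases direct vesicles between membranes, and of 45 members tested 5 were higher and 7 lower with NuGEN (median -0.27). These shares of 11.1 and 15.6% were not far from the 10.8 and 10.4% of all genes. After the median of genes of like length and GC content was taken off, the list's median was -0.04. *Rab1b*, which acts between the endoplasmic reticulum and the Golgi, had 2141 and 1587 normalized counts with NuGEN, against 745 and 598 with Clontech (log2 1.46, adjusted p = 3.9e-09). *Rab9b*, which acts in traffic from late endosomes to the Golgi, had 109.9 and 117 with NuGEN, against 283 and 326 with Clontech (log2 -1.42, adjusted p = 0.0020). The coding sequences of both are 603 bases long, but the *Rab1b* transcript has 1913 nt with 58.9% GC and the *Rab9b* transcript 3980 nt with 41.3% GC. Among AMPA and kainate receptor subunits, *Grik5* was higher and *Gria2* lower with NuGEN, and their transcripts have 3763 nt with 62.3% GC and 10371 nt with 36.8% GC. To show these compositions, the first stretch of 60 coding bases whose GC share is nearest to that of the whole coding sequence is printed for each, with G and C in capitals. The sequences are those of the GENCODE vM21 transcripts on GRCm38, where *Rab1b* lies on chromosome 19 from 5099205 to 5107072, *Rab9b* on chromosome X from 136858147 to 136868755, *Grik5* on chromosome 7 from 25009849 to 25072346 and *Gria2* on chromosome 3 from 80681450 to 80802835, all on the - strand.
Rab1b: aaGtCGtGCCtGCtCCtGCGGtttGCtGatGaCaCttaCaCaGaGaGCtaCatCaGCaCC
Rab9b: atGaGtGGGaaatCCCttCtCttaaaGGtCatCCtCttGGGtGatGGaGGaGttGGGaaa
Grik5: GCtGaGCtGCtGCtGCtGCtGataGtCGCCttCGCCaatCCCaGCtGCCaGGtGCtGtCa
Gria2: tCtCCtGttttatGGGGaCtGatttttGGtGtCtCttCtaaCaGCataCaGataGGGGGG
Of these 60 bases, 32 in *Rab1b* and 28 in *Rab9b* were G or C, and 37 in *Grik5* and 27 in *Gria2*, within coding sequences of 53.7, 46.8, 61.7 and 44.7% GC.

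Giant cytoskeletal and scaffold proteins, which span the cell cortex, carry cargo or hold membranes and come with very long transcripts, were the list most often lower with NuGEN. Of 29 tested, 23 were lower, 0 higher and 6 did not pass the test, with a median log2 difference of -0.70. *Dync1h1*, the heavy chain of cytoplasmic dynein, had 4175 and 6592 normalized counts with NuGEN, against 8804 and 12563 with Clontech (log2 -1.003). *Macf1*, which links actin to microtubules, had 3142 and 3941 with NuGEN, against 6680 and 7631 with Clontech (log2 -1.02). The nuclear envelope protein *Syne2* (log2 -1.50) and the ubiquitin ligase *Herc1* (log2 -1.10) were lower as well. The microtubule-associated protein *Map1b*, the member with the most counts, had 36031 and 36301 with NuGEN, against 32656 and 32640 with Clontech (log2 0.15, adjusted p = 0.20). After the median of genes in the same of 5 bins each of length and GC content was taken off, the list's median was -0.43. The list's transcripts had a median of 11808 nt, against 8551 nt in the longest of 10 bins of all genes, so length may be taken off only in part. Of 28 kinesin motors, 7 were lower and 1 higher, and *Kif5b*, a heavy chain of conventional kinesin, had 651 and 580 with NuGEN against 1992 and 1626 with Clontech (log2 -1.55).

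Small proteins of the cytoskeleton were more often higher with NuGEN. Of 27 small actin and microtubule regulators, 14 were higher and 1 lower with NuGEN (median 0.44). *Actb*, cytoplasmic actin, had 38420 and 28263 normalized counts with NuGEN, against 19514 and 13073 with Clontech (log2 1.04, adjusted p = 2.82e-12). *Cfl1*, which severs actin filaments, and *Pfn1*, which loads actin monomers, were higher by 1.45 and 1.63 on the log2 scale. Of 11 tubulins, the subunits of microtubules, 7 were higher and 1 lower (median 0.68), with *Tubb4a* at 11578 and 9768 with NuGEN, against 5926 and 5068 with Clontech and *Tubb4b* at 1271 and 948 against 1839 and 1368. *Tubb4b* and the actin-capping *Capza2* (log2 -0.62) were lower with NuGEN, and over summed exon pieces both lost that direction, at 0.13 and 0.08. *Tuba1a* (log2 1.25), *Actb*, *Tmsb10* and *Mt2* have close paralogs or processed pseudogenes, between which short reads may be split.

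**Figure D4:**
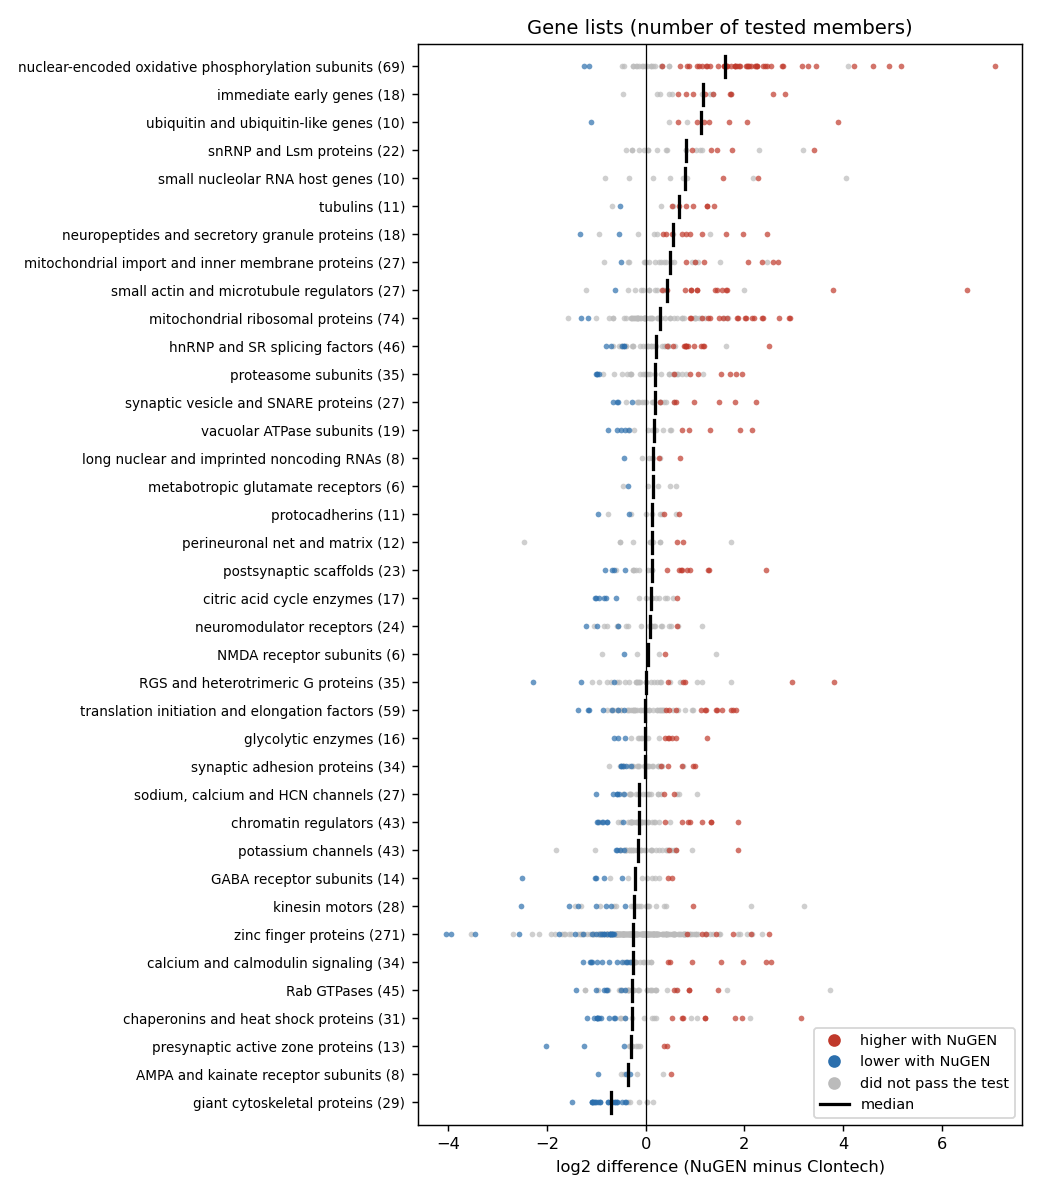
Log2 difference (NuGEN minus Clontech) of each tested member of the gene lists other than cell type markers, ordered by the list median (black bar). Red members were higher with NuGEN, blue members lower, and grey members did not pass the test. The medians run from 1.60 in 69 subunits of oxidative phosphorylation to -0.70 in 29 giant cytoskeletal proteins.

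Receptors for glutamate and GABA, the fast transmitters of the hippocampus, had more channel subunits lower than higher with NuGEN. Of 8 AMPA and kainate receptor subunits, 3 were lower and 1 higher with NuGEN, with a median log2 difference of -0.36. *Gria2*, the subunit that sets the calcium permeability of AMPA receptors, had 3265 and 3378 normalized counts with NuGEN, against 5281 and 8021 with Clontech (log2 -0.97, SE 0.118, adjusted p = 4.85e-08). *Gria1*, the AMPA subunit with the most counts, had 7653 and 10093 with NuGEN, against 9281 and 12804 with Clontech, so that the groups overlapped and only the values of the same RNA were in order (log2 -0.31, adjusted p = 0.015). *Grik5*, a kainate receptor subunit, had 1849 and 1712 with NuGEN, against 1449 and 1060 with Clontech (log2 0.52). Of 6 NMDA receptor subunits, the obligatory subunit *Grin1* was higher (log2 0.39) and *Grin2b* lower (log2 -0.44), and of 6 metabotropic receptors *Grm5* was lower (log2 -0.35).

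Of 14 GABA receptor subunits, 5 were lower and 2 higher with NuGEN (median -0.22). *Gabra4* had 325 and 428 normalized counts with NuGEN, against 912 and 643 with Clontech (log2 -1.04), and *Gabrb2* had 521 and 692 with NuGEN, against 1036 and 1399 with Clontech (log2 -1.002). After the median of genes of like length and GC content was taken off, the list medians were -0.04 for AMPA and kainate receptors and -0.01 for GABA receptors.

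Of 24 receptors for neuromodulators and steroid hormones, 1 was higher and 3 were lower with NuGEN (4.17 and 12.5%), below and near the shares of all genes. *Nr3c2*, the mineralocorticoid receptor, had 3856 and 4291 normalized counts with NuGEN, against 5438 and 6558 with Clontech (log2 -0.55, adjusted p = 0.000172). *Oxtr*, the oxytocin receptor, had 103 and 145 with NuGEN, against 257 and 312 with Clontech (log2 -1.20, adjusted p = 0.0088). The glucocorticoid receptor *Nr3c1* was lower too (log2 -0.98), while the adrenergic receptor *Adra1d* was higher (log2 0.64). The remaining 20 receptors did not pass the test.

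Most ion channel genes outside the transmitter receptors did not pass. Of 43 potassium channels, 3 were higher and 4 lower with NuGEN, and of 27 sodium, calcium and HCN channels 2 were higher and 6 lower. These shares were below or near those of all genes except for the last count (22.2% lower). However, 24 of these 27 averaged at least 100 normalized counts, and genes of higher level were called more often. *Kcnma1*, the BK channel, had 3440 and 5640 normalized counts with NuGEN, against 5278 and 8547 with Clontech (log2 -0.61). *Cacna2d1*, an auxiliary calcium channel subunit, was lower (log2 -1.01), and the sodium channel gene *Scn8a* had 7280 and 8179 with NuGEN, against 5820 and 7321 with Clontech (log2 0.24, adjusted p = 0.087).

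Calcium signaling was divided within the list. Of 34 genes tested, 7 were higher and 12 lower with NuGEN, shares of 20.6 and 35.3%. Of these genes 31 averaged at least 100 normalized counts, a level at which calls were more frequent. The members higher with NuGEN included small calcium and calmodulin binding proteins. *Hpca*, hippocalcin, had 49092 and 57857 normalized counts with NuGEN, against 14713 and 12460 with Clontech (log2 1.98, SE 0.0914, adjusted p = 1.77e-19). *Nrgn*, neurogranin, had 18646 and 15810 with NuGEN, against 3063 and 2875 with Clontech. *Camk2a*, a subunit of CaMKII, was higher (log2 0.49). The members lower with NuGEN included the large calcium release channels of the endoplasmic reticulum. *Ryr2* had 2386 and 3912 with NuGEN, against 6088 and 8916 with Clontech (log2 -1.27), and *Itpr1* was lower to a like degree (log2 -1.13). *Calm2*, a calmodulin gene, was higher with NuGEN (log2 0.94). *Gng3*, a neuronal G protein gamma subunit, had 4813 and 3781 with NuGEN, against 381 and 238 with Clontech (log2 3.82), while *Rgs4*, which shortens G protein signals, had 896 and 736 with NuGEN, against 2256 and 1816 with Clontech (log2 -1.32).

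Synaptic genes were called in both directions. Of 27 synaptic vesicle and SNARE proteins, 7 were higher and 4 lower with NuGEN (median 0.18). *Syn1*, synapsin, had 11020 and 8624 normalized counts with NuGEN, against 2851 and 2740 with Clontech (log2 1.802), and *Vamp2*, the vesicle SNARE, had 12118 and 9113 with NuGEN, against 4044 and 3452 with Clontech (log2 1.49). *Sncb*, beta-synuclein, was higher (log2 2.24). *Sv2b*, a vesicle glycoprotein, had 4578 and 5333 with NuGEN, against 7816 and 7828 with Clontech (log2 -0.66), and *Snap25*, a SNARE of the plasma membrane, had 27534 and 19713 with NuGEN, against 31169 and 25479 with Clontech (log2 -0.27, adjusted p = 0.016). *Unc13b*, which primes vesicles at the active zone, was lower (log2 -1.25) and the scaffold *Bsn* higher (log2 0.44).

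Of 23 postsynaptic scaffolds, 9 were higher and 4 lower with NuGEN (median 0.12). *Dlg4*, PSD-95, was higher (log2 0.74). *Dlg1*, SAP97, had 248 and 247 normalized counts with NuGEN, against 555 and 346 with Clontech (log2 -0.82), and *Homer1* was lower (log2 -0.65). *Gphn*, gephyrin, had the largest difference of the list (log2 2.45), but its exon pieces summed to less than 0.5 of its gene value in at least 1 library and gave a log2 difference of 0.15. Of 34 synaptic adhesion proteins, 5 were higher and 5 lower, 14.7% each, against 10.8 and 10.4% of all genes. *Nrxn2* was at 8633 and 7001 with NuGEN, against 3914 and 3845 with Clontech (log2 1.003).

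Genes of secretory granules and of the response to activity were more often higher with NuGEN. Of 18 neuropeptide and granule genes, 10 were higher and 2 lower (median 0.55, and 0.55 after length and GC content were taken into account). *Chgb*, a chromogranin, had 8599 and 6952 normalized counts with NuGEN, against 2881 and 2176 with Clontech (log2 1.63). *Pcsk1n*, the inhibitor of a prohormone convertase, had 2739 and 2032 with NuGEN, against 658 and 552 with Clontech (log2 1.97), while the convertase it inhibits, *Pcsk1*, had 91.6 and 75.8 with NuGEN, against 217 and 207 with Clontech (log2 -1.34). Of 18 immediate early genes, which neurons switch on within minutes of activity, 9 were higher and 0 lower, with a median of 1.17, and of 0.72 after length and GC content were taken into account. *Egr4*, a zinc finger transcription factor, had 538 and 285 with NuGEN, against 50.8 and 58.3 with Clontech (log2 2.82), and *Arc*, which regulates the surface level of AMPA receptors, had 1129 and 1553 with NuGEN, against 940 and 744 with Clontech (log2 0.66).

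Few of the CA2 markers were called. Of 12 tested, 1 was higher and 1 lower, shares of 8.33% each that lie below those of all genes. All 12 averaged at least 100 normalized counts, and genes of higher level were called more often. The median log2 difference of the markers was -0.06. *Ptpn5*, the phosphatase STEP, had 5562 and 4287 normalized counts with NuGEN, against 3601 and 3266 with Clontech (log2 0.51, adjusted p = 0.000852). *Map3k15*, a kinase, had 170 and 192 with NuGEN, against 270.0 and 490 with Clontech (log2 -1.004, adjusted p = 0.011). *Rgs14* and *Amigo2* did not pass (log2 0.23 and -0.34, adjusted p = 0.16 and 0.0502), and *Amigo2* lay at the threshold. *Pcp4*, a further CA2 marker, was not analysed here.

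Markers of other cells also differed. Of 8 markers of excitatory neurons 5 were higher and 1 lower, and of 10 of interneurons 3 were higher, with *Pvalb* at 187 and 147 normalized counts with NuGEN, against 130.5 and 24.8 with Clontech. Of 10 oligodendrocyte markers, 2 were higher, 0 lower and 8 did not pass the test. Their median was 0.16, with -0.04 in the QIAGEN and 0.11 in the PicoPure RNA pair. *Mbp*, a myelin protein and the member with the most counts, had 4078 and 2506 with NuGEN, against 1675 and 1050 with Clontech (log2 1.27). Of 10 astrocyte markers, 1 was higher and 1 lower, close to the shares of all genes (median -0.21), and the lower one, the glutamate transporter *Slc1a2*, had 6004 and 5265 with NuGEN, against 7414 and 6987 with Clontech (log2 -0.36). Within each RNA pair both kits were given the same RNA.

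Metabolic and housekeeping genes were called in both directions. Of 69 subunits of oxidative phosphorylation, 47 were higher and 2 lower with NuGEN, and their transcripts have a median of 865 nt. After the median of genes of like length and GC content was taken off, this list kept a median of 1.21. The large subunit *Ndufs1* of complex I was lower, with 401 and 446 normalized counts with NuGEN, against 1093 and 925 with Clontech (log2 -1.25). Citric acid cycle enzymes, which feed the same chain, had 6 of 17 lower and 1 higher. The list's median was nevertheless 0.11, with -0.08 in the QIAGEN and 0.17 in the PicoPure RNA pair. *Suclg1* was at 285 and 237 with NuGEN, against 540.0 and 525 with Clontech (log2 -1.03), and *Idh3a* was lower to a like degree (log2 -1.002). The malate dehydrogenase *Mdh1* was higher (log2 0.64). Of 16 glycolytic enzymes 6 were higher and 3 lower, and the common reference gene *Gapdh* had 10457 and 8509 with NuGEN, against 4296 and 3675 with Clontech (log2 1.25), while *Aldoa* had 9614 and 7777 against 10268 and 9023 (log2 -0.15, adjusted p = 0.28).

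Of 10 ubiquitin and ubiquitin-like genes, which tag proteins, 7 were higher and 1 lower with NuGEN (median 1.11). *Ubb*, a polyubiquitin gene, had 9296 and 8339 normalized counts with NuGEN, against 4508 and 3389 with Clontech (log2 1.17), and *Nedd8* was higher (log2 2.05), while *Ubl3* was lower (log2 -1.10). Of 31 chaperones, 8 were higher and 12 lower. *Pfdn6*, a subunit of prefoldin, had 393 and 298 with NuGEN, against 27.0 and 52.8 with Clontech (log2 3.14), and *Hsp90b1*, the Hsp90 of the endoplasmic reticulum, had 1104 and 737 with NuGEN, against 2058 and 2086 with Clontech (log2 -1.20). Of 74 mitochondrial ribosomal proteins 19 were higher and 2 lower, of 27 import proteins 7 and 1, and of 22 snRNP and Lsm proteins of the spliceosome 5 and 0.

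Zinc finger proteins gave few calls. Of 271 zinc finger proteins of the Zfp family, 7 were higher and 21 lower with NuGEN, both shares (2.58 and 7.75%) below those of all genes. Only 118 of the 271 averaged at least 100 normalized counts, and genes of low level were called less often. Of 43 chromatin regulators 8 were higher and 7 lower (18.6 and 16.3%), and 41 of them averaged at least 100 normalized counts. *Kdm6b*, a histone demethylase, had 746 and 441 normalized counts with NuGEN, against 150.4 and 164 with Clontech (log2 1.86), and *Smarca5*, a remodelling ATPase, had 361 and 378 with NuGEN, against 846 and 638 with Clontech (log2 -0.99). Of 46 hnRNP and SR splicing factors 13 were higher and 5 lower.

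By annotated class, 11611 of the tested genes were protein-coding and took 89.4 and 88.2% of normalized counts with NuGEN, against 93.8 and 93.7% with Clontech. Long intergenic noncoding RNAs took 5.45 and 5.18% with NuGEN, against 2.39 and 2.32% with Clontech. Without the single gene *Gm42418* they took 2.46 and 2.55% against 2.15 and 2.11%. Most of that remainder was the single gene *Gm26917*, at 1.86 and 1.73% against 1.59 and 1.32%, so the class shares rest mainly on these genes. Which RNA the reads assigned to *Gm42418* and *Gm26917* came from was not tested. Of 186 long intergenic noncoding RNAs tested, 13 were higher and 6 lower, a smaller share than among all genes. *Meg3*, an imprinted nuclear RNA, had 5362 and 8380 normalized counts with NuGEN, against 3280 and 5193 with Clontech (log2 0.70), and *Rian*, from the same imprinted cluster, had 2186 and 2909 with NuGEN, against 2892 and 4076 with Clontech (log2 -0.45). Antisense RNAs had 4 of 248 higher and 9 lower. Of 184 processed pseudogenes, which are intronless copies of mRNAs, 24 were higher and 10 lower (median 0.33), and -0.12 was their median after length and GC content were taken into account.

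Few genes were seen with 1 kit alone. With at least 10 normalized counts in both libraries of a kit and 0 reads in both of the other, there were 60 genes for NuGEN and 45 for Clontech, of which 33 and 26 were protein-coding and 2 and 8 antisense. After all libraries were thinned to 4548002 reads, 45 and 28 genes had at least 10 reads with 1 kit and 0 with the other. Named after their values were seen, *Afm*, a vitamin E binding plasma protein, was at 163 and 84.2 normalized counts in the NuGEN libraries and at 0 in both Clontech libraries, and *Nrk*, a kinase, had 0 with NuGEN and 79.7 and 88.8 with Clontech. *Glp1r*, the receptor of glucagon-like peptide, had 0 with NuGEN and 24.4 and 29.8 with Clontech. A count of 0 allows up to 3 reads, or 5.0 and 4.21 normalized counts in the NuGEN libraries and 1.93 and 1.86 in the Clontech libraries, for counting error only.

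The kits also differed in where along a gene their reads lay. In the exon table, exon numbers run from the 5′ end of the gene model, and a read counts in each exon piece that it covers. Across 6606 genes with at least 4 numbered exons and at least 100 exon counts in every library, the first exon held a median of 12.6 and 11.7% of a gene's exon counts in the NuGEN libraries, against 2.87 and 3.15% in the Clontech libraries. Both NuGEN libraries lay above both Clontech libraries in 64.1% of these genes and below both in 3.75%. The last exon held 16.4 and 17.0% with NuGEN, against 19.6 and 20.7% with Clontech, and the inner exons 65.2 and 65.9% against 73.5 and 72.6%. Counted by the highest piece of each exon, the first exon held 10.9 and 9.88% against 2.56 and 2.77%. The first exon's share was higher with NuGEN among genes called higher (14.3 and 13.3% against 4.53 and 4.32%, 857 genes) and among genes called lower (9.6 and 9.41% against 2.19 and 2.36%, 1166 genes).

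**Figure D5:**
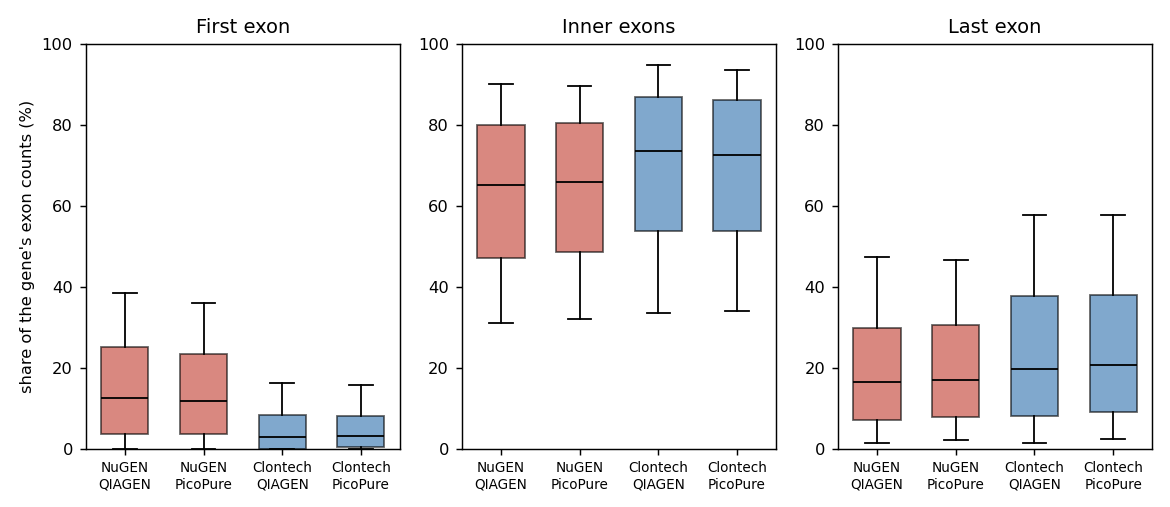
Share of a gene's exon counts, in percent, that lay in its first exon, its inner exons and its last exon, over 6606 genes in each of the 4 libraries (NuGEN red, Clontech blue). Lines are medians, boxes the 25th to 75th percentiles and whiskers the 10th and 90th percentiles. The first exon held a median of 12.6 and 11.7% with NuGEN, against 2.87 and 3.15% with Clontech.

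Single genes ranged widely around these medians. For *Psmd2*, a proteasome subunit whose total did not pass the test (log2 0.04, adjusted p = 0.91), the first exon held 40.3 and 31.9% with NuGEN, against 4.48 and 2.45% with Clontech. For *Snap25* it held 15.3 and 14.2% with NuGEN, against 1.58 and 1.51% with Clontech, and the last exon held 27.5% in both NuGEN libraries and 43.6 and 46.3% in the Clontech libraries. In *Actb* the last exon held 39.9 and 38.6% with NuGEN, against 10.025 and 11.4% with Clontech, and in the orphan nuclear receptor gene *Nr4a3* it held 8.44 and 11.6% with NuGEN, against 48.8 and 50.6% with Clontech.

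Length and GC content entered these parts of the gene unequally. Among genes of the exon comparison, the median log2 difference of first-exon counts was at its highest in the shortest of 5 bins of transcripts and fell to 1.32 in the longest, while that of inner exons was 0.32 and -0.39 and that of last exons 0.18 and -0.47. By GC content of the whole transcript, first-exon counts differed by 1.73 in the lowest bin and 1.68 in the highest, so no order was seen there. Last-exon counts differed by -0.67 in the lowest and 0.46 in the highest bin, and inner-exon counts by -0.33 and 0.29. These differences rest on the scaling of the exon table, in which the median of all exons together was 0.03 over these genes.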

How the data were processed

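RNA from laser-captured CA2 tissue was made into libraries with the NuGEN or the Clontech kit at the same RNA input and number of PCR cycles. According to the study's methods, reads were aligned with STAR 2.4.1d and counted with featureCounts against GENCODE M9 gene models. The authors left ribosomal and mitochondrial genes out of their analyses. The deposited counts still hold such genes, and they were left out here. The authors deposited gene and exon counts divided by DESeq2 size factors, used here as a signal. Of the nonzero deposited values, 100.0% came to whole reads within 0.01, and these reads were used for the count tests.

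Normalized counts plus a pseudocount of 1 were taken as log2 and fitted with limma 3.58.1 (R 4.3.3) on library kit and RNA kit, with Benjamini-Hochberg adjustment over all genes. The 4 libraries left 1 residual degree of freedom, and the spread was moderated with 35.52 prior degrees of freedom. edgeR 4.0.16 on the recovered reads called 1372 genes higher and 1101 lower. DESeq2 1.42.0, TMM scaling, other pseudocounts and filters, no RNA term, single libraries left out together with the RNA term, thinned reads and the exon table were alternatives. Scripts were tested on simulated data and used Python 3.11.15, numpy 2.4.6, pandas 2.3.3, scipy 1.17.1 and matplotlib 3.10.9.

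Lengths, GC content and classes came from GENCODE vM21 on GRCm38, where 12572 (96.4%) of the 13044 genes matched by gene symbol. Symbols borne by more than 1 gene were left unmatched, and genes renamed between the annotation versions can be missed. For each gene the longest transcript of the gene's own class was used. Medians after length and GC content were taken off used 5 bins of each, so differences within a bin remain. Named were the 10 largest called differences in each direction with the same sign in both RNA pairs, a mean of at least 100 normalized counts and exon pieces summing to at least 0.5 of the gene value, leaving out histone, small RNA and ribosomal protein genes and predicted symbols. From each list, the member with the most counts and the largest called differences were named, with *Rgs14* and *Amigo2*. *Dync1h1*, *Macf1*, *Herc1*, *Itpr1*, *Calm2*, *Vamp2*, *Syn1*, *Dlg4*, *Homer1*, *Chgb*, *Arc*, *Cfl1*, *Pfn1*, *Tuba1a*, *Idh3a*, *Gabrb2*, *Nr3c1* and *Nedd8* were added after their values were seen. The members and lists were chosen with earlier results of these data known. Some genes are not reported here. The table of the PCR cycle series was not used.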

Additional observations from a re-analysis of the deposited data

Results flagged for a closer look

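In the lists given here, the median log2 difference between NuGEN and Clontech libraries had opposite signs in the 2 RNA pairs. Each difference between the pairs is PicoPure minus QIAGEN RNA, and it was not tested, since each pair holds 1 library of each kit. It was -0.64 for CA1 markers, with medians of -0.12 for PicoPure and 0.52 for QIAGEN RNA, and -0.28 for CA3 markers. It was 0.15 for oligodendrocyte markers, -0.37 for NMDA receptor subunits and -0.33 for metabotropic glutamate receptors. It was -0.23 for potassium channels, -0.20 for synaptic adhesion proteins and 0.39 for genes of the perineuronal net and matrix. It was 0.25 for citric acid cycle enzymes and -0.16 for translation factors.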

How the results depend on the processing

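Under DESeq2 on the recovered reads 1110 genes were higher and 818 lower, and without the RNA term 691 and 454 were. Over summed exon pieces 651 genes were lower and 69.4% of calls were higher with NuGEN, against 50.8% over the gene table. Leaving out 1 library gave 2 to 58 genes higher and 0 lower, where the remaining library of a kit is assumed to vary like the others. Of 50 gene lists, 24 had at least 25% of their members called in 1 direction, and 20 of these kept the sign of their median under 9 alternatives. The cause was not tested for the 4 that did not. The median of glycolytic enzymes, -0.01 over the gene table, was 0.036 with QIAGEN RNA alone, 0.022 with PicoPure RNA alone, 0.013 after length and GC content were taken off, 0.356 over summed exon pieces, 0.346 over the highest exon piece and 0.336 there relative to all genes. The last alternative was chosen after seeing the data. Citric acid cycle enzymes (0.11) were at -0.078 with QIAGEN RNA alone and at -0.193 after length and GC content. Chaperones (-0.27) were at 0.039 after length and GC content, at 0.381 over the highest exon piece and at 0.372 relative to all genes. Long nuclear noncoding RNAs (0.14) were at -0.009 and -0.019 over the highest piece and relative to all genes. *Tubb4b* and *Capza2* were at 0.129 and 0.082 over summed exon pieces. Of the 93 called genes named, 16 lost the call over the highest exon piece and 29 without the RNA term. Most lost it with 1 library and the RNA term left out together.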
